A study of Mus musculus with 14 samples.

Results

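Nr4a1, Nr4a2, Nr4a3, Egr1, Egr2, Egr3 and Rcan1 are 7 early-response genes, and they are described here in mouse bone marrow-derived macrophages exposed to material released by mast cells. They were picked out by name, as 7 of the 47937 genes in the deposited count table, and they were chosen on measured values of these same libraries, taken here to be their differences between treated and untreated cells within batches, so those differences are given as a description and without a test. All 7 passed the filter on low counts, as did 13061 genes in all. The study sequenced poly(A) RNA in 14 libraries of wild-type (WT) macrophages grown from bone marrow. Of these, 3 came from cells given the supernatant of mast cell traps, which the labels call mast cell intracellular traps, 5 from cells given mast cell supernatant without that description, and 6 from untreated cells. Both treatments lasted 3.5 h, per the series' design text. The labels spread each group over 3 batches: trap supernatant had 1 library in each, mast cell supernatant had 2, 1 and 2 in batches 1, 2 and 3, and untreated cells had 2 in each. They give neither the animals nor the cultures behind the libraries, so spreads and p-values measure differences between these libraries, which may be technical. What the supernatants held, how the mast cells were handled and what a batch stands for are likewise not stated in the labels.

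The NR4A genes encode nuclear receptors that act without a known activating hormone and whose output follows their amount, so transcription of the gene is their main control. The EGR genes encode zinc finger transcription factors that bind GC-rich DNA. Both families belong to the immediate early genes, which calcium, cyclic AMP and growth factor signals switch on within an hour without new protein synthesis, through CREB bound to cyclic AMP response elements and through serum response factor (SRF) bound to the CArG box. Rcan1 encodes a protein that binds and inhibits calcineurin, the calcium-dependent phosphatase that sends NFAT transcription factors to the nucleus; its shorter isoform starts at an internal promoter and is a textbook target of NFAT. In macrophages, EGR and NR4A genes respond quickly to microbial and cytokine signals, and NR4A1 restrains inflammatory gene expression.

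Sequence before the annotated starts is shown because each of the 3 Nr4a genes holds several copies of 1 short element there. RefSeq promoter windows on GRCm38 were found for 5 of the 7 genes, and the 250 bases before each start were searched on both strands, with any base inside a GENCODE exon left out of what is printed. The lines below run 5′ to 3′ on the strand of the gene. Capitals mark the half-site of the cyclic AMP response element, TGACG on either strand, the full element TGACGTCA, and in Egr2 also the CArG box. They give Nr4a1 at chr15:101266596-101266845 on the plus strand, Nr4a2 at chr2:57124004-57124253 on the minus strand, Nr4a3 at chr4:48045055-48045152 on the plus strand, Egr2 at chr10:67537619-67537868 on the plus strand, and Rcan1 before its internal start at chr16:92400079-92400328 on the minus strand.
Nr4a1: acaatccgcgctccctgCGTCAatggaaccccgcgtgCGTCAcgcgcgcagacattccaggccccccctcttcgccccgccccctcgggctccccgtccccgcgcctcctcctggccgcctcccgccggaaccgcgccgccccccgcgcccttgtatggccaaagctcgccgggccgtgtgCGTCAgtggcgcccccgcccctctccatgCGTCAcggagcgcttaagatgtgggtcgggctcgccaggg
Nr4a2: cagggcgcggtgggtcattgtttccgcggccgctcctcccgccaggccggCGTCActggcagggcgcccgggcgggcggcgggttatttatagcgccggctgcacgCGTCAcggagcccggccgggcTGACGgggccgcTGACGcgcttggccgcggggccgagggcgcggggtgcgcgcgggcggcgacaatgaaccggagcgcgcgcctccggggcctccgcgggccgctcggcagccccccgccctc
Nr4a3: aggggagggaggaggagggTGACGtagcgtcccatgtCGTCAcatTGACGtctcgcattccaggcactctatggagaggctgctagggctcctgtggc
Egr2: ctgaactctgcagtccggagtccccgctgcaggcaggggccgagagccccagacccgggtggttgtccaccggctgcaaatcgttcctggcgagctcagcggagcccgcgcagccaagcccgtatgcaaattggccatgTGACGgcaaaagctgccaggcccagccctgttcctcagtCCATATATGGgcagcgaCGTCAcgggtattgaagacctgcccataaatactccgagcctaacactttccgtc
Rcan1: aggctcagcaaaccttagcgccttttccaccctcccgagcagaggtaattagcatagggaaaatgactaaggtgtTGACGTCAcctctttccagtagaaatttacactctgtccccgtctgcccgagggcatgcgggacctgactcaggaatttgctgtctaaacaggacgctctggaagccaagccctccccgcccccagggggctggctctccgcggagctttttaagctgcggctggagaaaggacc
The half-site occurred at 4 positions in the 250 bases of each Nr4a gene, 3 of the 4 falling in the 98 bases printed for Nr4a3. Of 32851 such windows over 27025 genes, 17.8% held at least 1 half-site and 0.137% held 4 or more. The Egr2 window, 1 of 5 found for that gene, held 2 half-sites around 1 CArG box, which 1.47% of windows contained. The Egr2 windows that overlap it held the same sites. Further upstream, the window at chr10:67537316-67537565 held a CArG box and no half-site, and that at chr10:67535249-67535498 held neither. The Rcan1 window held the full element, found in 1.55% of windows, whose overlapping half-sites lie on both strands. It also held 3 copies of the NFAT core GGAAA, a short motif that 55.6% of windows held at least once. The window before the outer Rcan1 start held neither element and no NFAT core. The core also occurred 3 times in another Egr2 window, and once each in the printed Egr2 window and the Nr4a2 window. The EGR site GCGNGGGCG, in 4.7% of windows, occurred once in the Nr4a1 window and once in the Nr4a2 window, and the NR4A monomer site AAAGGTCA, in 1.34%, in none of those of the 5 genes. These matches are letters in a window and are no measure of binding, and reads counted per gene do not show which Rcan1 start was used.

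Total counts were 12414738 to 16491536 in trap supernatant libraries, 11729073 to 16123421 in mast cell supernatant libraries and 13455686 to 22720419 in untreated libraries. Libraries of the same group differed more between batches than within them, with a chi-square per degree of freedom of 29.1 to 74.7 in 23 pairs from different batches and 1.77 to 14.04 in 5 pairs from the same batch, and no 2 libraries were identical. The 9 macrophage markers summed to 9315 to 19527 CPM (reads per 1000000 counts of a library, scaled by TMM) in trap supernatant libraries, 9289 to 20701 CPM in mast cell supernatant libraries and 9431 to 19137 CPM in untreated libraries, with all 9 detected in each. Treated libraries also carried mast cell mRNA. The 11 mast cell markers summed to 83.6, 744 and 1977 CPM in the trap supernatant libraries of batches 1, 2 and 3. In mast cell supernatant libraries the sum was 81.9 and 109 CPM in batch 1, 1383 CPM in batch 2, and 284 and 226 CPM in batch 3. It was 5.81 to 9.05 CPM in untreated libraries, where Mcpt4, Tpsb2 and Tpsab1, which encode mast cell proteases, were at 0 in all 6. The 10 neutrophil markers summed to 97.0 to 263 CPM in trap supernatant libraries, 88.0 to 267 CPM in mast cell supernatant libraries and 111 to 317 CPM in untreated libraries, and were highest in batch 3 in each group.

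In batch 1 all 7 genes were higher in cells given either supernatant than in untreated cells, and in batch 3 all 7 were lower in cells given mast cell supernatant. In batch 2 the treatments differed: with mast cell supernatant 6 of the 7 were at least 2-fold higher and Nr4a3 was nearly level, and with trap supernatant most stood close to the untreated libraries. The change of direction was common to receptors, zinc finger factors and the calcineurin inhibitor. Because RNA came from whole cultures, fewer cells making a transcript and less transcript per cell cannot be told apart.

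**Figure D1:**
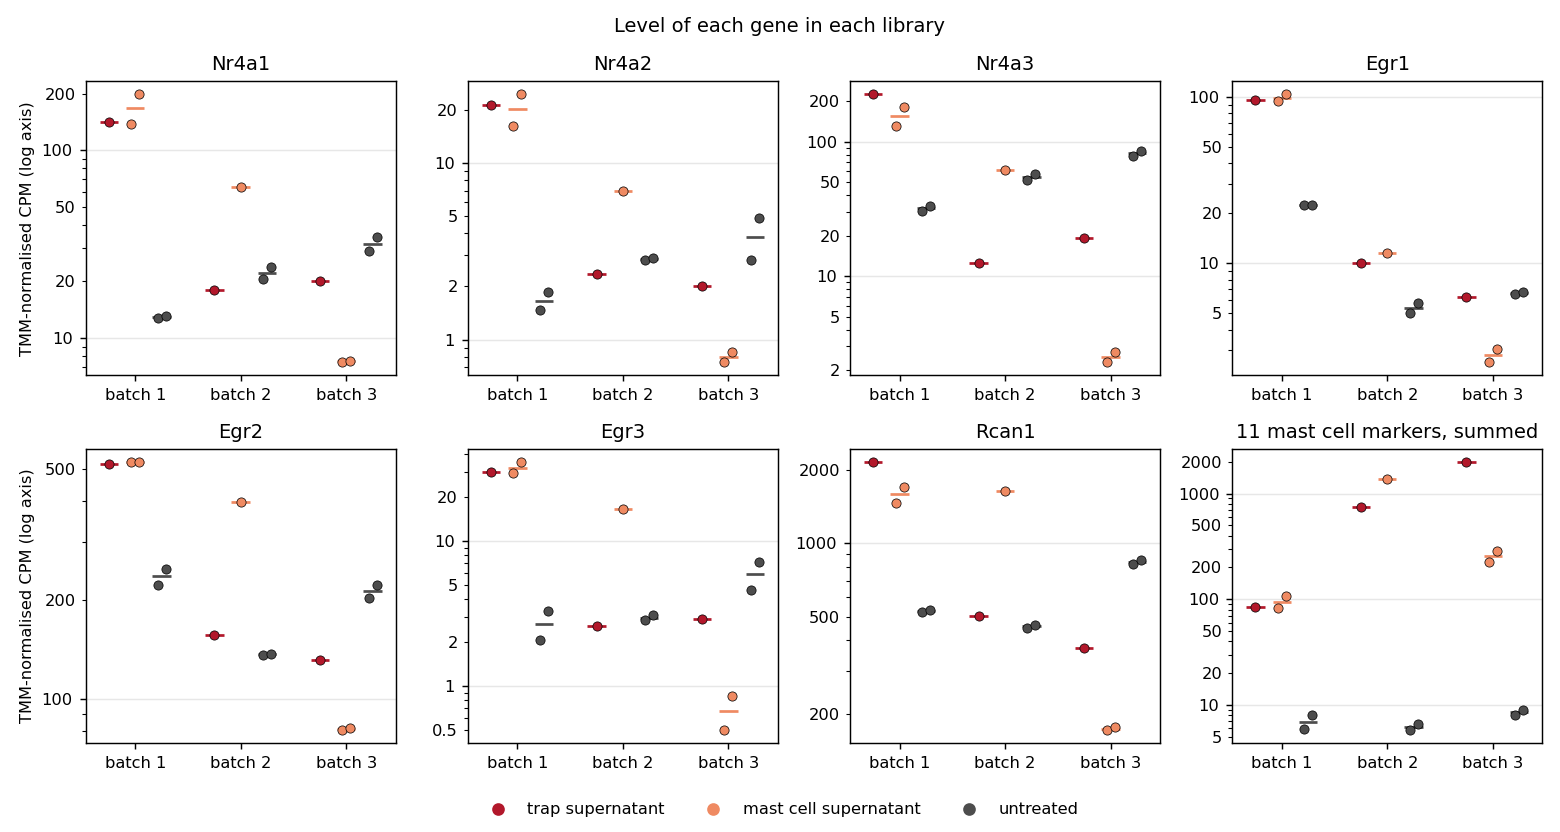
Level of each of the 7 genes and summed level of 11 mast cell markers in every library (CPM, log axis), by batch, with trap supernatant, mast cell supernatant and untreated libraries from left to right; points are libraries and lines are means. In batch 3 both mast cell supernatant libraries lie lowest for each of the 7 genes, and in batch 1 the treated libraries lie above the untreated ones.

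Nr4a1 (ENSMUSG00000023034, chr15:101254269-101274795 on GRCm38, plus strand) encodes NUR77, the NR4A receptor best studied in macrophages. In batch 1, Nr4a1 stood at 140 CPM with trap supernatant and at 137 and 198 CPM with mast cell supernatant, against 13.1 and 12.8 CPM in untreated cells. Its batch 2 levels were 18.1 CPM with trap supernatant, 63.3 CPM with mast cell supernatant, and 20.7 and 23.8 CPM in untreated cells. Batch 3 gave 20.2 CPM with trap supernatant and 7.56 and 7.46 CPM with mast cell supernatant, against 34.6 and 29.0 CPM in untreated cells. The 3 treated libraries of batch 1 thus held the highest Nr4a1 levels of the series and the mast cell supernatant libraries of batch 3 the lowest. Set against untreated cells of the same batch, mast cell supernatant gave 12.7-fold and 2.85-fold higher levels in batches 1 and 2 and a 4.19-fold lower level in batch 3.

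Nr4a2 (ENSMUSG00000026826, chr2:57106830-57124003, minus strand) encodes NURR1 and had the lowest mean of the 7 per length of transcript in each group. Its batch 1 levels were 21.5 CPM with trap supernatant and 16.2 and 24.6 CPM with mast cell supernatant, against 1.46 and 1.86 CPM in untreated cells. Batch 2 gave 2.35 CPM with trap supernatant, 6.97 CPM with mast cell supernatant, and 2.90 and 2.81 CPM in untreated cells. In batch 3, Nr4a2 was at 2.02 CPM with trap supernatant and at 0.850 and 0.746 CPM with mast cell supernatant, which rest on 10 and 9 reads, against 4.87 and 2.81 CPM in untreated cells. Its order of groups within each batch was that of Nr4a1, except that in batch 1, where its trap library also lay between both mast cell supernatant libraries, it stood above their mean and not below it.

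Nr4a3 (ENSMUSG00000028341, chr4:48045153-48086447, plus strand) encodes NOR1 and moved the most of the 7. With trap supernatant it reached 224 CPM in batch 1, where mast cell supernatant gave 130 and 179 CPM and untreated cells 33.4 and 30.7 CPM. In batch 2, Nr4a3 measured 12.5 CPM with trap supernatant and 61.2 CPM with mast cell supernatant, against 57.4 and 52.0 CPM in untreated cells. In batch 3, Nr4a3 was at 19.3 CPM with trap supernatant and at 2.29 and 2.73 CPM with mast cell supernatant (27 and 33 reads), against 85.1 and 78.0 CPM in untreated cells. It was the only one of the 7 that was more than 4-fold lower with trap supernatant than in untreated cells in both of batches 2 and 3, by 4.35-fold and 4.22-fold. In batch 3 mast cell supernatant libraries it was 31.7-fold lower than in untreated cells, and its highest library of the 14 held 97.7 times its lowest.

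Egr1 (ENSMUSG00000038418, chr18:34859823-34864984, plus strand), the prototype of its family, differed between batches already in untreated cells. Its batch 1 levels were 95.7 CPM with trap supernatant and 94.7 and 104 CPM with mast cell supernatant, against 22.6 and 22.4 CPM in untreated cells. In batch 2, Egr1 measured 10.01 CPM with trap supernatant and 11.5 CPM with mast cell supernatant, against 4.995 and 5.76 CPM in untreated cells. In batch 3, Egr1 measured 6.29 CPM with trap supernatant and 2.55 and 3.07 CPM with mast cell supernatant, against 6.78 and 6.52 CPM in untreated cells. Both supernatants thus went with higher Egr1 in batches 1 and 2, and the trap library of batch 3 lay just under the untreated ones. Untreated cells of batch 1 held 4.15 times the Egr1 of untreated cells of batch 2 and 3.36 times that of batch 3, whereas the other 6 genes differed by at most 2.54-fold between untreated batches.

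Egr2 (ENSMUSG00000037868, chr10:67535475-67542188, plus strand), a factor also active in resting macrophages, was the most abundant of the 3 Egr genes and had the narrowest range over the 14 libraries. In batch 1, Egr2 stood at 518 CPM with trap supernatant and at 523 CPM in both mast cell supernatant libraries, against 223 and 249 CPM in untreated cells. Batch 2 gave 157 CPM with trap supernatant and 397 CPM with mast cell supernatant, against 138 and 136 CPM in untreated cells. Batch 3 gave 132 CPM with trap supernatant and 82.0 and 80.8 CPM with mast cell supernatant, against 203 and 222 CPM in untreated cells. The trap library of batch 3 lay between the mast cell supernatant and the untreated libraries, with no overlap. Its highest library held 6.48 times its lowest.

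Egr3 (ENSMUSG00000033730, chr14:70077203-70082614, plus strand), which overlaps Egr2 in function in lymphocytes, covered a much wider range. Its batch 1 levels were 29.7 CPM with trap supernatant and 34.9 and 29.3 CPM with mast cell supernatant, against 2.07 and 3.26 CPM in untreated cells. In batch 2, Egr3 measured 2.57 CPM with trap supernatant and 16.6 CPM with mast cell supernatant, against 2.84 and 3.09 CPM in untreated cells. In batch 3, Egr3 was at 2.90 CPM with trap supernatant and at 0.850 and 0.497 CPM with mast cell supernatant (10 and 6 reads), against 4.56 and 7.18 CPM in untreated cells. The batch 2 trap library lay just under both untreated ones while the mast cell supernatant library lay 5.50-fold above their mean.

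Rcan1 (ENSMUSG00000022951, chr16:92391953-92470867, minus strand) was the most abundant of the 7, with 2064 to 28636 reads a library. In batch 1, Rcan1 stood at 2146 CPM with trap supernatant and at 1467 and 1704 CPM with mast cell supernatant, against 520 and 534 CPM in untreated cells. Batch 2 gave 503 CPM with trap supernatant and 1637 CPM with mast cell supernatant, against 448 and 462 CPM in untreated cells. In batch 3, Rcan1 was at 372 CPM with trap supernatant and at 175 and 171 CPM with mast cell supernatant, against 850 and 820 CPM in untreated cells. The mast cell supernatant level of batch 2 thus lay between those of batch 1, and the batch 3 levels were far below both. Read depth does not limit this gene: libraries of the same group and batch differed by an SD of 0.07 on the log2 scale, against 0.37 for Egr3. An antisense gene, Gm46555, lies inside the span of Rcan1 but shares 0 exon bases with it.

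Across the 14 libraries the 7 genes therefore shared 1 sign of difference with mast cell supernatant in each batch, by different amounts. On the log2 scale the mast cell supernatant minus untreated differences in batches 1, 2 and 3 were 3.66, 1.51 and -2.07 for Nr4a1, and 3.55, 1.27 and -2.13 for Nr4a2. For Nr4a3 they were 2.25, 0.16 and -4.99. Nr4a3 was thus the gene with the smallest difference in batch 2 and the largest in batch 3. The 3 differences were 2.14, 1.10 and -1.23 for Egr1, 1.15, 1.54 and -1.38 for Egr2, and 3.59, 2.46 and -3.01 for Egr3. For Rcan1 they were 1.59, 1.85 and -2.27. Egr2 and Rcan1 differed from untreated cells by more in batch 2 than in batch 1, while the other 5 genes did so by less. With mast cell supernatant 7 of 7 were at least 2-fold higher in batch 1, as were 2.17% of all 13061 genes, and 6 of 7 in batch 2, as were 2.40% of all genes. In batch 3 all 7 were at least 2-fold lower, as were 2.81% of all genes. These contrasts were used in choosing the genes, so nothing is read from the counts.

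With trap supernatant the differences from untreated cells in batches 1, 2 and 3 were 3.43, -0.29 and -0.64 for Nr4a1, 3.65, -0.28 and -0.86 for Nr4a2, and 2.81, -2.12 and -2.08 for Nr4a3 on the log2 scale. They were 2.09, 0.89 and -0.08 for Egr1, 1.14, 0.20 and -0.68 for Egr2, and 3.48, -0.20 and -0.96 for Egr3. For Rcan1 they were 2.03, 0.14 and -1.16. Only in batch 1 did trap supernatant go with at least 2-fold higher levels, in 7 of 7 genes and in 2.79% of all genes. In batch 2 Nr4a3 alone of the 7 was at least 2-fold lower (1.32% of all genes), and in batch 3 Nr4a3 and Rcan1 were (3.01% of all genes). Each batch held 1 trap supernatant library, so these values have no replicate within a batch. The 2 treatments were set against the same untreated libraries.

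**Figure D2:**
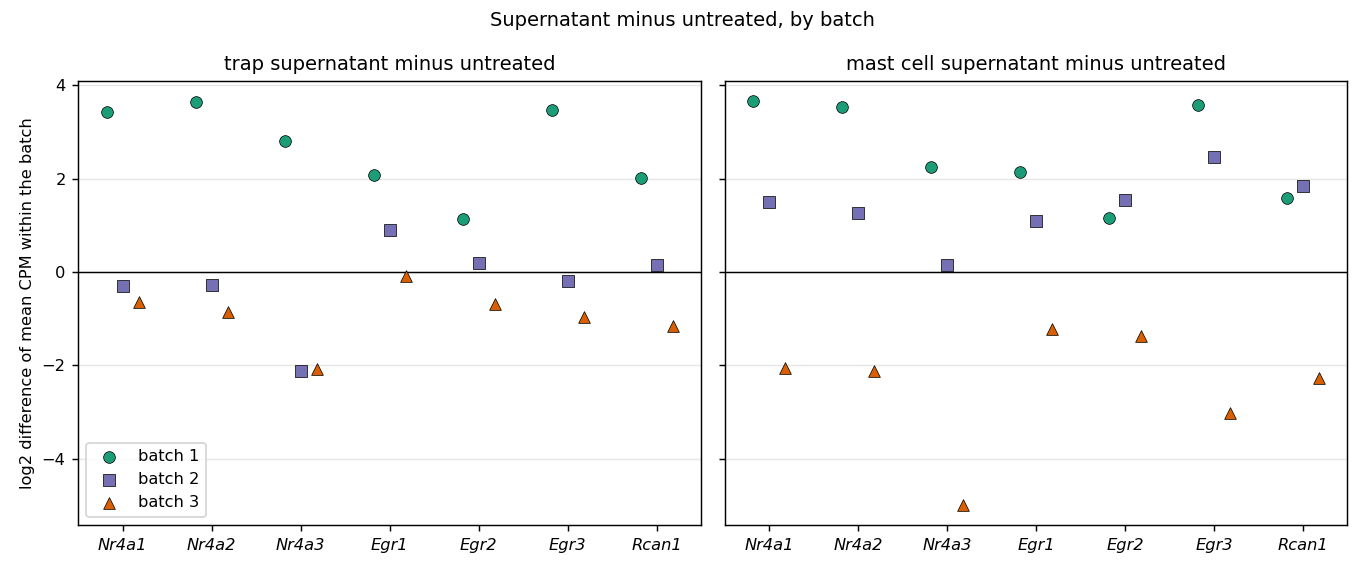
Log2 difference from untreated cells of the same batch for each of the 7 genes, with trap supernatant on the left and mast cell supernatant on the right; circles, squares and triangles are batches 1, 2 and 3. Mast cell supernatant lies above 0 for each gene in batches 1 and 2 and below 0 in batch 3, from 3.66 for Nr4a1 in batch 1 to -4.99 for Nr4a3 in batch 3.

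When all batches were fitted together, batches of opposite direction were averaged, and the average differences had wide errors. With mast cell supernatant the log2 difference from untreated cells was 1.002 ± 0.91 (SE) for Nr4a1, 1.18 ± 0.86 for Nr4a2 and -0.69 ± 1.13 for Nr4a3. It was 1.001 ± 0.48 for Egr1, 0.36 ± 0.46 for Egr2, 1.48 ± 0.95 for Egr3 and 0.29 ± 0.74 for Rcan1. These values had served in choosing the genes, so no call or p is given for them. With trap supernatant the differences ran from -0.59 ± 1.28 for Nr4a3 to 1.09 ± 0.53 for Egr1. The average over batches rested on which batches entered it: without batch 3 the mast cell supernatant differences were all above 0, from 1.15 for Nr4a3 to 3.12 for Egr3, and without batch 1 they were below 0 for 6 of 7, from -1.85 for Nr4a3 to 0.23 for Egr3. Leaving out a batch was chosen after the batches were seen to differ. Over all genes, 625 were called at a false discovery rate of 0.05 by edgeR's quasi-likelihood test with mast cell supernatant and 224 with trap supernatant. In the 9 libraries whose replicate numbers mark a shared batch, with that number as a block, these were 36 with trap supernatant and 84 with mast cell supernatant.

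The difference between batches was then fitted itself, as the mast cell supernatant response in batch 1 minus that in batch 3, which have 2 treated and 2 untreated libraries each. Its log2 value was 5.77 ± 0.25 (SE) for Nr4a1, 5.85 ± 0.46 for Nr4a2 and 7.29 ± 0.23 for Nr4a3. It was 3.38 ± 0.20 for Egr1, 2.53 ± 0.11 for Egr2, 6.69 ± 0.41 for Egr3 and 3.86 ± 0.11 for Rcan1. The responses of the 3 Nr4a genes and Egr3 thus differed by more than 5 log2 units between the batches, and that of Egr2 by the least. The within-batch differences that make up this contrast had served to choose the genes, so neither a p nor a call is given. The mast cell marker sum did not follow the same order over batches: it was lower in batch 1 than in batch 3 mast cell supernatant libraries (81.9 and 109 CPM, against 284 and 226 CPM), and highest in batch 2. The neutrophil marker sum was 167 and 181 CPM with mast cell supernatant, against 129 and 127 CPM in untreated cells, in batch 1. In batch 3 it was 267 and 238 CPM with mast cell supernatant, against 285 and 317 CPM in untreated cells. For 5 of the 10 neutrophil markers the response, not the level, was called higher in batch 1 in this contrast, as it was for 7.86% of all genes. The part of the marker transcripts in the result was not tested.

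Within the Nr4a family the make-up of the transcripts differed between treated and untreated cells in the same way in each batch, including those where the levels moved in opposite directions. Levels were divided by exon length and each gene was expressed as a share of the family's sum, which no scaling between libraries can alter. Nr4a1 made up 48.4%, 65.9% and 60.8% of the sum in the trap supernatant libraries of batches 1, 2 and 3. With mast cell supernatant its share was 60.3% and 61.0% in batch 1, 60.2% in batch 2, and 78.4% and 76.8% in batch 3, against 36.3% to 41.97% (median 38.8%) in untreated libraries. Every treated library thus had a larger Nr4a1 share than every untreated one. Nr4a3 took 45.2%, 26.7% and 33.9% with trap supernatant in batches 1, 2 and 3. With mast cell supernatant it took 33.6% and 32.4% in batch 1, 34.1% in batch 2, and 13.9% and 16.5% in batch 3, against 53.7% to 59.2% (median 57.0%) in untreated libraries. By these length-scaled shares Nr4a3 was the leading family member in all 6 untreated libraries and Nr4a1 in all 8 treated ones. In the trap supernatant library of batch 1 that lead hung on the exon lengths used. There Nr4a3 stood at 224 CPM and Nr4a1 at 140 CPM before division by length. Nr4a2 remained the smallest, with 5.24% to 7.39% with trap supernatant, 5.73% to 7.62% with mast cell supernatant and 3.15% to 4.96% in untreated libraries.

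As a ratio, Nr4a3 over Nr4a1 was lower by 0.63, 1.83 and 1.43 log2 units with trap supernatant than in untreated cells of batches 1, 2 and 3, and by 1.41, 1.35 and 2.92 log2 units with mast cell supernatant. Both genes had been chosen on these contrasts, so the shift is a description. The ratio of Nr4a2 to Nr4a1 moved by no more than 0.25 log2 units from untreated cells in any batch or treatment. Among the Egr genes, Egr2 supplied 84.4% to 94.96% of the length-scaled sum with trap supernatant, 83.8% to 96.9% with mast cell supernatant and 92.3% to 95.9% in untreated cells. The lowest Egr2 shares were those of the treated batch 1 libraries, in which Egr1 took up to 12.6%.

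**Figure D3:**
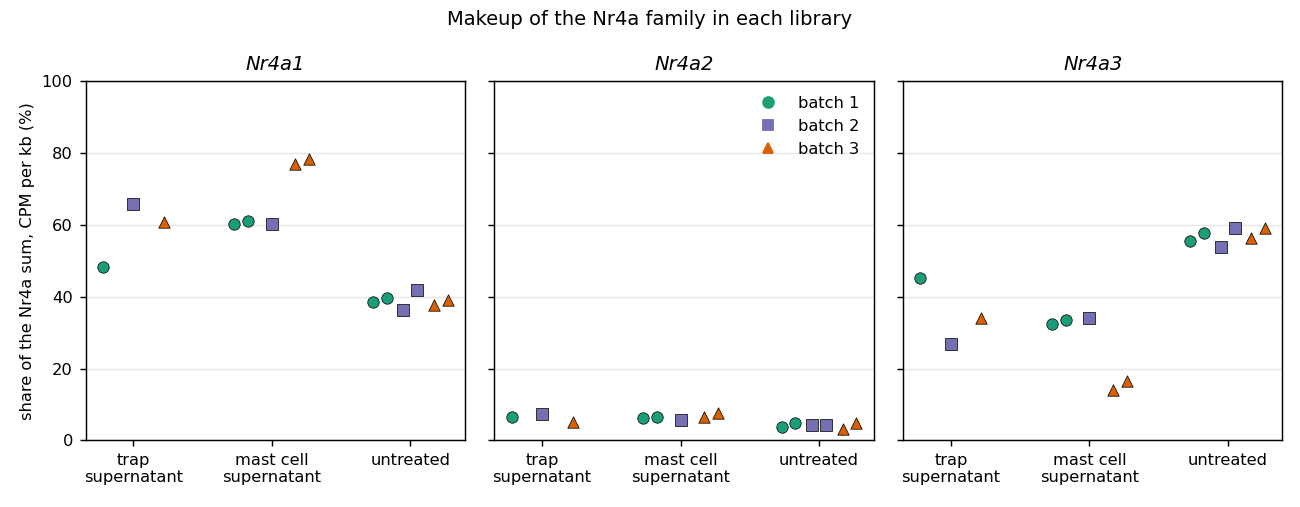
Share of each Nr4a gene in the summed Nr4a level (percent of CPM per kb of exon) in every library, by batch, with trap supernatant, mast cell supernatant and untreated libraries from left to right. Nr4a1 makes up 48.4% to 78.4% in treated libraries and 36.3% to 41.97% in untreated ones, and Nr4a3 does the reverse.

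Per kb of exon, trap supernatant libraries averaged 326 ± 320 CPM per kb for Rcan1, 79.2 ± 63.6 for Egr2, 17.0 ± 19.96 for Nr4a1 and 14.2 ± 20.1 for Nr4a3 (SD, n = 3). Mast cell supernatant libraries averaged 334 ± 255 CPM per kb for Rcan1, 94.5 ± 66.2 for Egr2, 23.6 ± 23.8 for Nr4a1 and 12.6 ± 13.1 for Nr4a3 (SD, n = 5). In untreated libraries the levels were 196 ± 58.6 CPM per kb for Rcan1, 57.4 ± 13.98 for Egr2, 9.37 ± 3.74 for Nr4a3 and 6.36 ± 2.47 for Nr4a1 (SD, n = 6). Egr1, Egr3 and Nr4a2 followed in that order in each group, at 8.33 ± 11.3, 2.66 ± 3.54 and 2.12 ± 2.75 CPM per kb with trap supernatant, 9.63 ± 11.5, 3.73 ± 3.59 and 2.43 ± 2.55 with mast cell supernatant, and 2.57 ± 1.90, 0.870 ± 0.415 and 0.686 ± 0.290 in untreated cells. The order by mean was thus the same with both supernatants and differed from that of untreated cells in the places of Nr4a1 and Nr4a3. In untreated cells the library ranges of Rcan1 and Egr2 were separate from each other and from the rest, and those of every later pair of neighbours overlapped. In treated cells the ranges of all neighbours overlapped, which the differences between batches widened: within a group the log2 SD ran from 0.997 for Egr2 to 2.11 for Nr4a3, and within a group and batch from 0.07 to 0.37.

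Whether the comparison of the 2 supernatants with each other served in choosing the genes is not settled by the way they were listed. It shares its treated libraries with the comparisons taken to have served, and in the fit it is the gap between those 2 differences from untreated cells. Its test is therefore not independent of the choice, and its p-values and calls are given as a description. No difference was detected for any of the 7. Over all batches the trap minus mast cell supernatant log2 difference was -0.38 ± 0.95 (SE) for Nr4a1, with a 95% interval of -2.53 to 1.77. It was -0.19 ± 0.89 for Nr4a2 (-2.19 to 1.82) and 0.11 ± 1.15 for Nr4a3 (-2.49 to 2.71). The sign thus differed within the family, and each interval spanned more than 3 log2 units. Among the Egr genes it was 0.09 ± 0.51 for Egr1 (-1.07 to 1.24), -0.21 ± 0.54 for Egr2 (-1.42 to 1.001) and -0.54 ± 1.003 for Egr3 (-2.79 to 1.72). For Rcan1 it was -0.05 ± 0.80 (-1.86 to 1.75). Each had an adjusted p of 0.99996 by edgeR's quasi-likelihood test. Thus 0 of 7 were called, as were 0.00% of all genes, with 11 called by DESeq2 and 569 of 13061 having an unadjusted p under 0.05. The intervals include 2-fold differences in both directions for all 7, so the fit does not show that the supernatants act alike.

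Within batches the levels with the 2 supernatants differed, in opposite directions in batches 2 and 3. In batch 1 the trap minus mast cell supernatant difference lay between -0.23 for Nr4a1 and 0.55 for Nr4a3, and 0 of 7 reached 2-fold, where 3.84% of all genes did. In batch 2 it was negative for each gene, from -2.66 for Egr3 to -0.20 for Egr1, and 6 of 7 were at least 2-fold lower with trap supernatant, as were 1.58% of all genes. In batch 3 it was positive for each gene, from 0.70 for Egr2 to 2.91 for Nr4a3, and 6 of 7 were at least 2-fold higher with trap supernatant, as were 2.51% of all genes. Batch 2 rests on 1 library of each supernatant and batch 3 on 1 against 2. Each value is also the gap between 2 within-batch differences from untreated cells. Those were taken to have served in choosing the genes, so nothing is read from the counts. The mast cell marker sum was 744 CPM with trap supernatant and 1383 CPM with mast cell supernatant in batch 2, and 1977 CPM with trap supernatant against 284 and 226 CPM with mast cell supernatant in batch 3. In both batches the libraries with the higher mast cell marker sum were thus also those with more of these transcripts. In batch 1, where the sums were 83.6 CPM with trap supernatant and 81.9 and 109 CPM with mast cell supernatant, the genes differed little. For each of the 7 genes except Rcan1 the 3 treated libraries of batch 1 held the highest levels of the series. Their marker sums were the lowest of the treated libraries. The part of mast cell mRNA in any of these differences was not tested.

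**Figure D4:**
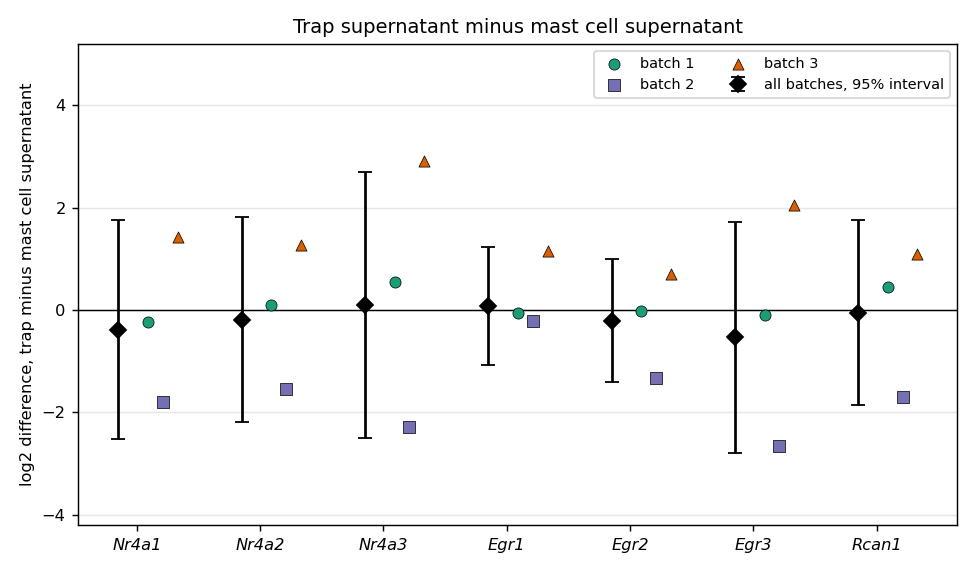
Trap supernatant minus mast cell supernatant difference (log2) of each of the 7 genes; diamonds with bars are the fit over all batches with its 95% interval, and circles, squares and triangles are batches 1, 2 and 3. Batch 2 values are negative and batch 3 values positive for each gene, and every interval includes 0.

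The genes whose pattern over the 14 libraries lay nearest to each of the 7 were found as the smallest root-mean-square (RMS) difference of log2 CPM centred on the gene's own mean, among 11875 other genes averaging 1 CPM or more. Nr4a1 and Nr4a2 had the same 3 nearest genes: Ccl4, which encodes a chemokine (RMS 0.28 from Nr4a1 and 0.32 from Nr4a2), Osm, which encodes the cytokine oncostatin M (0.29 and 0.33), and Csrnp1, which encodes a nuclear protein (0.31 from both). The median gene lay 1.49 from Nr4a1, 1.54 from Nr4a2, 1.94 from Nr4a3, 1.76 from Egr1, 0.92 from Egr2, 1.80 from Egr3 and 1.13 from Rcan1. Nearest to Rcan1 were Ccl3 (0.33), Gm6377 (0.37) and the kinase gene Plk3 (0.41). Nearest to Egr2 were the transcription factor genes Tal2 (0.25), Rel (0.30) and Prdm1 (0.31). For Egr3 they were the chemokine genes Ccl7 (0.48), Ccl2 (0.55) and Cxcl2 (0.57). Egr1 had Cxcl3 (0.59), Il1b (0.79) and G530011O06Rik (0.80), and Nr4a3 had Csf1 (0.76), Edn1 (0.82) and Olr1 (0.84). Nr4a3 and Egr1 thus had no gene as close to them as the other 5 did. Among the 7 themselves, Nr4a1 and Nr4a2 were closest at 0.19, Egr2 and Rcan1 lay 0.35 apart, and Nr4a3 and Egr1 were farthest apart at 1.39. Egr2 lay farther from Nr4a3 (1.26), Egr1 (0.998) and Egr3 (0.973) than from its median gene.

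The lists of genes known to act on or with the 7 are read against the share of all genes called. It was 1.72% with trap supernatant and 4.79% with mast cell supernatant. In the batch 1 minus batch 3 contrast it was 11.2% in either direction and 7.86% higher in batch 1. Higher or lower in that contrast refers to the mast cell supernatant minus untreated difference and not to the level. None of the lists held a call between the supernatants, by edgeR or by DESeq2 (2 genes at an unadjusted p under 0.05). Of 17 tested calcineurin and NFAT pathway genes, 0 were called with trap supernatant (2 at an unadjusted p under 0.05, 0 by DESeq2) and 1 with mast cell supernatant (4 by DESeq2). The list's median log2 difference was 0.06 with trap supernatant and 0.05 with mast cell supernatant, and that of all genes -0.01 in both. In the batch 1 minus batch 3 contrast 3 of the 17 were called higher in batch 1 and 1 lower. The largest were Nfatc1, an NFAT factor, at 0.66 ± 0.13 (edgeR adjusted p = 0.00165), and Dyrk1a, a kinase that acts against NFAT, at 0.65 ± 0.15 (adjusted p = 0.00681). Rcan3, a relative of Rcan1, went the other way at -0.64 ± 0.17 (edgeR adjusted p = 0.0171), a call kept in 11 of the 14 fits that left out 1 library. For Nfatc1 the mast cell supernatant minus untreated difference was 0.32 in batch 1 and -0.34 in batch 3.

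Of 6 genes for SRF and its ternary complex partners, 1 fell with each supernatant. It was Elk3, a ternary complex factor, at 107 ± 24.99 CPM with trap supernatant, 89.1 ± 24.3 CPM with mast cell supernatant and 131 ± 28.6 CPM in untreated cells (SD, n = 3, 5 and 6). Its log2 difference from untreated cells was -0.29 ± 0.07 (SE) with trap supernatant (edgeR adjusted p = 0.0423) and -0.50 ± 0.06 with mast cell supernatant (adjusted p = 0.000115). It was lower in all 3 batches with both, at -0.67, -0.42 and -0.37 in batches 1, 2 and 3 with mast cell supernatant. The trap call was lost in 10 of the 14 fits that left out 1 library and in the replicate block (edgeR adjusted p = 0.163). The mast cell supernatant call was kept in all 14. Over the list, DESeq2 called 1 gene lower with each supernatant and 1 higher with mast cell supernatant. In the batch 1 minus batch 3 contrast 0 of 6 were higher and 2 lower, the SRF coactivator genes Mrtfb (-0.49 ± 0.14, edgeR adjusted p = 0.0262) and Mrtfa (-0.47 ± 0.10, adjusted p = 0.00558), calls kept in 9 and 13 of the 14 fits that left out 1 library. The list's median was 0.01 with trap supernatant, -0.05 with mast cell supernatant and -0.29 in the contrast of batches, where that of all genes was -0.02. Of the EGR corepressor genes Nab1 and Nab2, 0 were called in any of the 4 comparisons by edgeR or DESeq2, with 1 of them at an unadjusted p under 0.05 in the contrast of batches and 1 with trap supernatant; Egr4, the other gene of that list, was not tested.

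Of 14 MAP kinase pathway genes, 1 rose with each supernatant. It was Mapk14, which encodes the kinase p38 alpha, at 160 ± 13.4 CPM with trap supernatant, 166 ± 19.98 CPM with mast cell supernatant and 132 ± 23.4 CPM in untreated cells (SD, n = 3, 5 and 6). The log2 difference was 0.29 ± 0.07 (SE) with trap supernatant (edgeR adjusted p = 0.0357) and 0.30 ± 0.06 with mast cell supernatant (adjusted p = 0.00608). It was higher in all 3 batches with both. In the replicate block the adjusted p was 0.163 with trap supernatant and 0.0791 with mast cell supernatant, and 7 and 14 of the 14 fits that left out 1 library kept the call. In the batch 1 minus batch 3 contrast 2 of the 14 were higher in batch 1 and 1 lower. Mapkapk2, whose product is activated by p38, differed by 1.24 ± 0.12 (edgeR adjusted p = 9.07e-07), and Map3k8, which encodes the kinase TPL2 that activates the ERK pathway, by 1.24 ± 0.17 (adjusted p = 5.28e-05). Their mast cell supernatant minus untreated differences were 0.60, 0.23 and -0.63 for Mapkapk2 and 0.85, 0.42 and -0.38 for Map3k8 in batches 1, 2 and 3, so both changed sign as the 7 genes did. Rps6ka1, an ERK-activated kinase gene, went the other way at -0.51 ± 0.11 (edgeR adjusted p = 0.00503). The list's median was 0.01 with trap supernatant, 0.02 with mast cell supernatant and -0.01 between batches.

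Of 8 genes for CREB and its coactivators, 0 were called with either supernatant (0 at an unadjusted p under 0.05 with trap supernatant, 1 with mast cell supernatant, and 0 by DESeq2 with either). In the batch 1 minus batch 3 contrast 3 of the 8 were called higher and 0 lower, led by the coactivator genes Crebbp (0.61 ± 0.17, edgeR adjusted p = 0.0277) and Crtc2 (0.59 ± 0.13, adjusted p = 0.00495), with a list median of 0.27; DESeq2 called 2. The Crebbp call was kept in 7 of the 14 fits that left out 1 library, the Crtc2 call in 13 and the other, of Creb1, in 6. Of 5 tested NR4A partner genes, which encode RXR receptors and steroid receptor coactivators, 0 were called with either supernatant (0 at an unadjusted p under 0.05 with trap supernatant, 2 with mast cell supernatant, 0 by DESeq2), and 1, Ncoa3, was called higher in batch 1 (0.44 ± 0.12, edgeR adjusted p = 0.0266), a call kept in 10 of the 14. Of the 9 macrophage markers, Cd14, which encodes a receptor for lipopolysaccharide, was called with mast cell supernatant (0.39 ± 0.10, edgeR adjusted p = 0.0412, kept in 3 of the 14 fits, and 0.0969 in the replicate block), and 0 of the 9 with trap supernatant (2 at an unadjusted p under 0.05, 1 by DESeq2). In the batch 1 minus batch 3 contrast Cd14 alone of the 9 was called, at 0.70 ± 0.11 (edgeR adjusted p = 0.00018), and kept in all 14 fits. Its mast cell supernatant minus untreated difference was 0.73, 0.38 and 0.04 in batches 1, 2 and 3. Of the 11 mast cell markers 1, Hdc, was called higher in that contrast (1.70 ± 0.46, edgeR adjusted p = 0.0207). Of the 11 mast cell markers, 7 rose with trap supernatant and 9 with mast cell supernatant (10 in each by DESeq2), and of the 10 neutrophil markers 0 were called with either (0 at an unadjusted p under 0.05 with trap supernatant and 1 with mast cell supernatant, where DESeq2 called 0 and 1).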

How the data were processed

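Poly(A) RNA of macrophages was sequenced in 14 libraries after an Illumina stranded preparation, per the labels' protocols. The authors deposited raw read counts for each gene, whole numbers without normalization, made with featureCounts 2.0.0 on GRCm38, per the submitters' processing notes. No source used here gives the aligner, annotation release or strand setting; counting without strand would mix a gene with its antisense partner. Columns were matched to libraries by name. Gene symbols, coordinates and exon lengths are those of GENCODE M21 on GRCm38 (47224 of 47937 identifiers had a symbol), and promoter sequence is from RefSeq. The 7 genes, the gene lists and the tests were chosen with earlier results of these data known.

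edgeR 4.0.16 in R 4.3.3 was used for the tests. filterByExpr kept 13061 genes, TMM scaled the libraries, and a robust quasi-likelihood model held terms for group and batch over all 14 libraries, with Benjamini-Hochberg adjustment over all genes tested and a false discovery rate of 0.05. The contrast of batches used a model with 1 term per group and batch. Standard errors (SE) were derived from the F statistic. A within-batch difference is that of the group means of log2 CPM, with 1 as the prior count. The genes named are the 7, the 3 nearest genes of each, and per list and direction at most 2 genes with the largest change past the threshold. Of these, 1 is not reported here. Cell type markers are 9 for macrophages, 11 for mast cells and 10 for neutrophils. The total of 11729073 to 22720419 counts a library sets the precision of low genes, of which the smallest count here was 6 for Egr3. The tests were also tried on simulated counts, whose outcome is not given here and is not used as support.

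Replicates 1, 2 and 3 of every group have the batch labels 1, 2 and 3, so the number marks a shared batch: with group means removed, the 9 same-numbered pairs correlated at 0.298 to 0.710 and the 18 others at -0.592 to 0.173 over genes. These 9 libraries were also fitted with the number as a replicate block, as 1 alternative, beside DESeq2 1.42.0, median-ratio size factors, no filter, no batch term, other prior counts, leaving out each library and, added after seeing the data, leaving out each batch and other prior counts for the nearest genes.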

Additional observations from a re-analysis of the deposited data

How the results depend on the processing

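For the 7 genes the value moved by less than the spread between libraries of a group (for batch contrasts, of a group and batch) in 305 of 308 alternatives for the differences from untreated cells, 103 of 119 for the contrast of batches and 125 of 126 within batches. The spread within a group, 0.997 to 2.11 log2 units, includes the differences between batches, so a change of sign can stay inside it. The 305 therefore do not show stable differences. With mast cell supernatant 1 of 7 was below 0 over all batches and 6 of 7 without batch 1. The number of genes called over the whole table depended on the model. DESeq2 called 11 between the supernatants and 409 with trap supernatant. Without a batch term 62 genes were called with mast cell supernatant and 15 with trap supernatant. With the replicate block the numbers were 84 and 36, and the block called 0 of the 7 between the supernatants. Leaving out 1 library gave 449 to 751 genes with mast cell supernatant, 97 (without trap supernatant replicate 3) to 280 with trap supernatant, 0 to 3 (without trap supernatant replicate 2) between the supernatants, and 838 (without untreated replicate 4) to 2428 (without untreated replicate 3) for the contrast of batches. The last also fell to 843 without mast cell supernatant replicate 4 and 851 without untreated replicate 1. With trap supernatant, 137, 134 and 131 were called without trap supernatant replicate 1, untreated replicate 2 and untreated replicate 5, and between the supernatants 1 was without mast cell supernatant replicate 2. Leaving out whole batches, chosen after seeing the data, gave 116 genes with trap supernatant without batch 1, 88 without batch 2, where mast cell supernatant had 231, and 1 between the supernatants without batch 3. The causes were not tested, other than that fewer libraries enter these fits.

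The trap minus mast cell supernatant difference of the 7 genes, never called, reversed in 23 of 154 alternatives. Without a batch term Egr1 was at -0.21. Without batch 1 Nr4a3 was at -0.31, and without batch 3 Nr4a3 was at -0.17 and Egr1 at -0.15. Without batch 2 Nr4a1 was at 0.10, Nr4a2 at 0.23, Egr2 at 0.24, Egr3 at 0.13 and Rcan1 at 0.63. Over the fits without 1 library the value ran from -1.42 to 0.23 for Nr4a2, -1.46 to 0.64 for Nr4a3, -0.22 to 0.27 for Egr1, -0.58 to 0.26 for Egr2 and -0.88 to 0.64 for Rcan1. The nearest gene of each of the 7 was the same with prior counts of 0.25 and 5. Depth limits Nr4a2 and Egr3 most, with 9 and 10 and with 6 and 10 reads in the batch 3 mast cell supernatant libraries.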
